A study of Mus musculus with 6 samples.

Results

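The genes that flank Hnrnpd on mouse chromosome 5 were compared between cells of 2 genotypes sorted as satellite cells. Hnrnpd encodes AUF1, a protein that binds AU-rich elements in mRNAs, and it is the gene removed in the AUF1-null mice of the study. The interval runs 10 Mb to each side of it, at chr5:89955936-109978938 in the GRCm38 build. The members are the genes of the authors' deposited table that overlap this interval and were tested by the authors, apart from Hnrnpd, its neighbour Hnrpdl, several genes named singly and the Gbp, Cxcl and Cnot families. No fold change or p-value is a term of that rule, but being tested depends on the level, and the names left out were set with earlier results of these data known. The rule gave 90 members among 14858 tested genes, 32 of them at lower and 58 at higher coordinates than Hnrnpd. The interval holds 177 genes of the table in all, of which 63 were not tested by the authors and 24, Hnrnpd included, were left out by name.

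The study sequenced RNA from 3 wild-type and 3 AUF1-null samples. All 6 came from hindlimb skeletal muscle of mice aged 4 months, digested with collagenase and sorted for the surface proteoglycan Sdc4. The labels state a C57BL/6 strain with a 129 background for the breeding. The table holds 1 value for each gene and condition, which Cuffdiff, the program whose layout it has, writes as FPKM (fragments per kilobase of transcript, scaled to the depth of the library). It names its conditions q1 and q2. No label used here ties q1 or q2 to a genotype, so each direction below is that of q2 against q1. There is no value per sample, and hence no SD, standard error or n beside a gene. The test is Cuffdiff's own, given as a p-value and as a q-value, which is the p-value adjusted over all tested genes. A gene was called when its q was below 0.05.

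A gene removed in embryonic stem cells of one mouse strain and then crossed into another strain keeps neighbours from the first strain, since alleles close to the selected one are rarely separated from it by recombination. Such linked segments can carry regulatory and coding differences that have nothing to do with the removed gene. Flanking genes are therefore a usual check in knockout comparisons. No source used here gives the strain from which the AUF1-null allele was derived or the number of backcrosses. Whether the interval differs in origin between the groups was not tested.

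Of 6 sets of cell type markers, only the neutrophil set held called genes. The 3 neutrophil markers S100a8, S100a9 and Ngp were all called, with a summed level of 889 FPKM in q1 and 12200 FPKM in q2 in the authors' deposited table. None of 6 satellite cell markers was called, and their sum was 315 and 382 FPKM. Without Sdc4, the protein used for the sort, the other 5 summed to 143 FPKM in q1 and 113 FPKM in q2. Pax7, which defines the lineage, was listed at only 1.16 and 0.85 FPKM in the authors' deposited table. Of the other marker sets, none called, the sums in q1 and q2 were 722 and 591 FPKM for 3 endothelial, 1274 and 1420 FPKM for 2 fibro-adipogenic, 2353 and 3613 FPKM for 2 pericyte and 694 and 708 FPKM for 2 Schwann cell genes. No marker was listed at 0. In such bulk samples, fewer cells of a type and less RNA per cell cannot be told apart. The part of these cell types in the values of the flanking genes was not tested.

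Hnrnpd itself was listed at 7.50 FPKM in q1 and 5.59 FPKM in q2 in the authors' deposited table, without a call (q = 0.999). Its level does not show which condition lacks AUF1.

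Of the 90 flanking genes, none was called at the authors' q, where 0.612% of all tested genes were. The lowest q among them was 0.303, for Agpat9, and 81 of them shared the highest q of 0.999. At an unadjusted Cuffdiff p below 0.05 there were 7 members, or 7.78%, beside 5.99% of all tested genes. This share lies near the background only with the 23 genes left out by name: with them put back it was 13.3% (15 of 113). Of these 7, Agpat9 and Slc10a6 were higher in q2 (2.22% of members, 3.72% of all tested genes), and Btc, Parm1, Prkg2, Abcg3 and Fgfrl1 were lower (5.56% of members, 2.27% of all tested genes). None of the 7 passed the adjustment, and no replicate value is there to place beside them. The next lowest p was 0.0647, for Aff1.

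Most members were listed at similar levels on both sides. In 61 of 90 (67.8%) the values lay within 1.5-fold of each other, beside 74.2% of all tested genes above 0 on both sides. The median log2 fold change was -0.09 over the members and -0.01 over all tested genes, and the median size of the log2 fold change, whatever its sign, was 0.36 and 0.30. Of the members, 39 lay above 0 and 51 below. Differences of 2-fold or more were found in 14 members (15.6%, beside 12.1% of all tested genes above 0 on both sides), 6 of them higher and 8 lower in q2. None of these 14 had a mean level of 10 FPKM or more, where 4.41% of all tested genes above 0 on both sides differed by 2-fold. Under 1 FPKM it was 6 members, or 40% of the members at that level, beside 41.6% of all tested genes above 0 on both sides. These 6, Areg, Btc, AA792892, Hpse, Dmp1 and 1700028K03Rik, may have been tested only through their higher side, as described below. Their part in the count and directions of the 14 is thus no independent result. From 1 to 10 FPKM it was 8 members, or 19.0%, beside 11.4% of all tested genes above 0 on both sides. With 1 FPKM added to both values, 4 members (4.44%) still reached 2-fold, beside 4.50% of all tested genes.

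**Figure D1:**
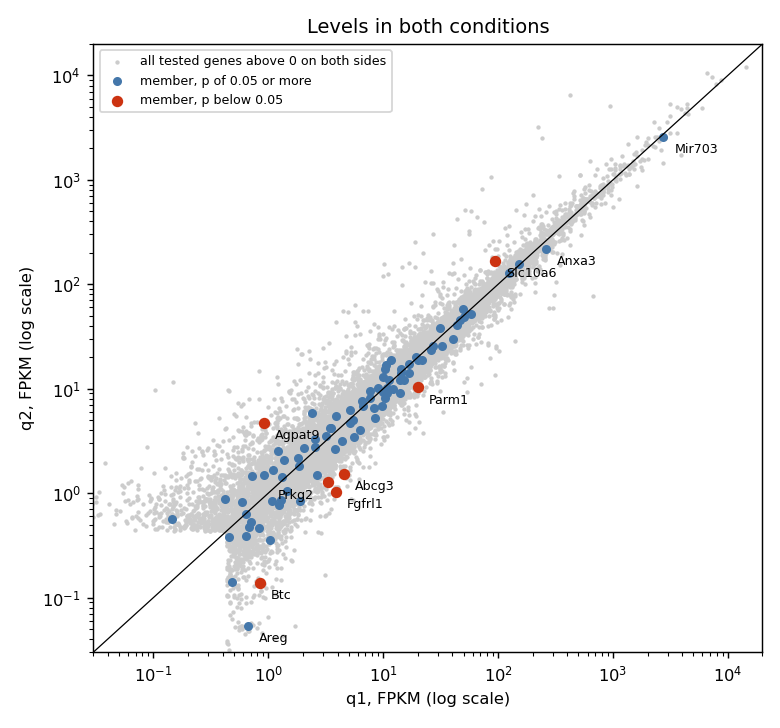
FPKM in q1 (x axis) against q2 (y axis), both on log scales, with all tested genes above 0 on both sides in grey, the 83 members with a p of 0.05 or more in blue and the 7 members with a p below 0.05 in red; the line marks equal values. Mir703 and Anxa3 are the highest members and lie close to the line, and the members farthest from it, such as Areg and Btc, are low.

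The size of the difference was larger among members listed at lower levels. Over 15 members with a mean under 1 FPKM the median size of the log2 fold change was 0.73, over 42 members from 1 to 10 FPKM it was 0.43, and over 33 members of 10 FPKM or more it was 0.20. All tested genes gave 0.81, 0.36 and 0.21 in the same classes. Across the 90 members, Spearman's rho between that size and the mean level was -0.53 and between that size and the distance from Hnrnpd 0.16, both given as descriptions of genes that share the same libraries. The lowest value on the higher side among the members was 0.450 FPKM, and 8 members had their lower side beneath that value, so these 8 may have been tested only through their higher side. All 8 are in the class under 1 FPKM, where this favours large differences among the genes tested. The relation between size and level is therefore in part set by which genes were tested, and that part was not measured.

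Next to Hnrnpd, 13 members lay within 1 Mb, 8 above and 5 below 0, with a median log2 fold change of 0.05. In 9 of the 13 the values were within 1.5-fold. A p below 0.05 was found for 2 of them (15.4%), Agpat9 and Prkg2, beside 5.99% of all tested genes. With Plac8 and Hnrpdl put back it was 3 of 15 (20%). With so few genes, a difference from the share of all tested genes was not tested. Enoph1, an enzyme that recovers methionine, is the nearest member and lay 0.061 Mb away, at 14.0 FPKM in q1 and 12.1 FPKM in q2 in the authors' deposited table. Sec31a, of the outer coat of vesicles leaving the endoplasmic reticulum, was listed at 40.4 and 29.9 FPKM in the authors' deposited table (Cuffdiff p = 0.207). Both were a little lower in q2. The long noncoding RNA 5430416N02Rik was at 16.7 and 17.1 FPKM in the authors' deposited table. Lin54, a DNA-binding subunit of a complex that controls cell cycle genes, was at 3.45 and 4.17 FPKM in the authors' deposited table, so these lay slightly higher in q2. Cops4, a subunit of the COP9 signalosome, was at 44.0 and 40.8 FPKM in the authors' deposited table. Coq2, which attaches the side chain of ubiquinone, was at 10.4 and 8.09 FPKM in the authors' deposited table. These 6 members at higher coordinates differed by at most 1.35-fold. Plac8, left out by name, lies among them and was 4.36-fold higher in q2 in the authors' deposited table (Cuffdiff p = 0.0008, q = 0.105).

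At lower coordinates the interval next to Hnrnpd is poor in tested genes. Rasgef1b, an exchange factor of small Ras-like GTPases, lay 0.703 Mb away and was listed at 11.6 FPKM in q1 and 18.9 FPKM in q2 in the authors' deposited table (Cuffdiff p = 0.0805). Prkg2, a protein kinase switched on by cyclic GMP, was at 3.32 and 1.27 FPKM in the authors' deposited table. It was thus 2.61-fold lower in q2, with a Cuffdiff p of 0.00815 and a q of 0.405 in the authors' deposited table. Antxr2, a receptor for collagen fragments and anthrax toxin, was at 14.2 and 14.1 FPKM in the authors' deposited table. The kinase gene Bmp2k was at 1.85 and 1.83 FPKM in the authors' deposited table. Both were therefore almost equal on the 2 sides. Anxa3, a membrane-binding annexin, was at 263 and 218 FPKM in the authors' deposited table.

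**Figure D2:**
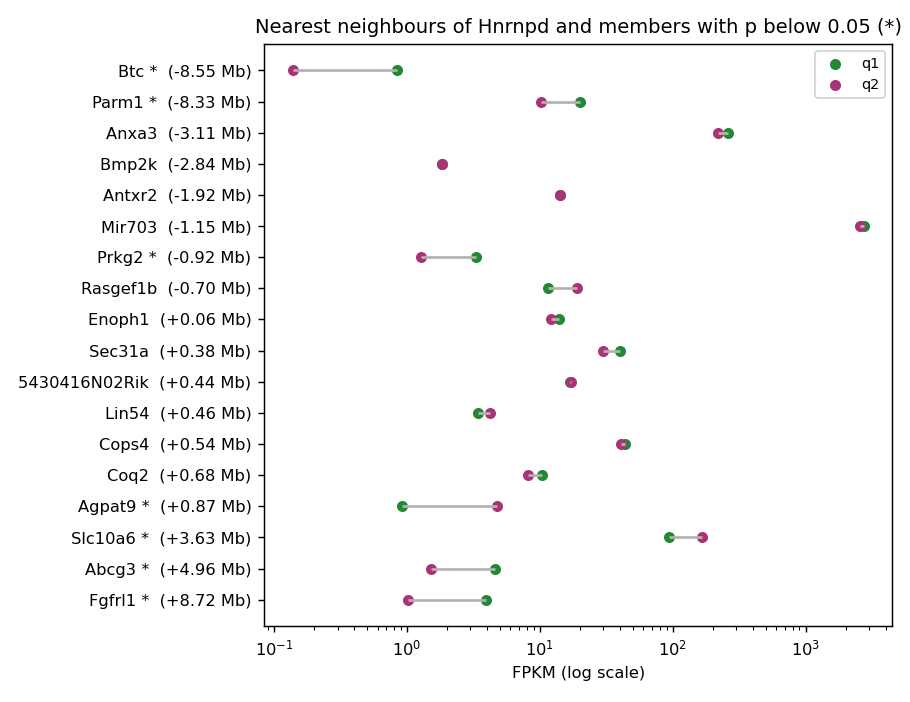
FPKM on a log scale in q1 (green) and q2 (purple) for the 6 members nearest to Hnrnpd on each side and the members with an unadjusted p below 0.05 (asterisks), in order of position with the distance from Hnrnpd in Mb. The pairs of points are close together for most neighbours, and they are farthest apart for Btc and Agpat9.

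The remaining nearest neighbour, Mir703, had the highest level of all members, 2750 FPKM in q1 and 2569 FPKM in q2 in the authors' deposited table (log2 fold change -0.10, Cuffdiff p = 0.859). Only 23 of all tested genes had a higher mean. The microRNA is shown because this value stands apart from every other in the interval: RefSeq (GRCm38.p6) gives its mature form at chr5:98475616-98475636 on the minus strand, below with the seed, bases 2 to 8, in capitals.

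mmu-miR-703: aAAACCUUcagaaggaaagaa

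No other of 1738 mature mouse microRNAs in that RefSeq table has this seed. The hairpin is 109 bases long and lies within Cfap299, a gene on the opposite strand, outside all its annotated exons. In the authors' deposited table, however, the position of Mir703 is the 473 kb of that whole gene, and the host, listed there as 1700007G11Rik, was at 0.12 and 0.14 FPKM and not tested. On a feature this short a few fragments make a large FPKM, and no size selection for small RNA is named in the labels, so this level cannot be set against those of other members.

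The 3 members with the lowest p were Agpat9, Abcg3 and Prkg2. Agpat9, named Gpat3 in RefSeq, encodes an acyltransferase of triglyceride synthesis and starts 0.867 Mb from Hnrnpd. It was listed at 0.918 FPKM in q1 and 4.74 FPKM in q2 in the authors' deposited table. The value in q2 was 5.16-fold higher in the authors' deposited table (Cuffdiff p = 0.0045, q = 0.303), or 2.99-fold with 1 FPKM added. Abcg3, of the ABC transporter family, was at 4.56 and 1.52 FPKM in the authors' deposited table, 3.00-fold lower in q2 (Cuffdiff p = 0.0062, q = 0.357). It lies beside the Gbp genes, which are not members; Gbp4, at 64.3 and 26.6 FPKM, and Gbp6, at 19.2 and 7.01 FPKM in the authors' deposited table, were lower in q2 too, also without a call.

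Fgfrl1, a receptor for fibroblast growth factors without a kinase domain, was listed at 3.91 FPKM in q1 and 1.02 FPKM in q2 in the authors' deposited table (Cuffdiff p = 0.0103, q = 0.465). Parm1, a mucin-like membrane protein, was at 20.2 and 10.3 FPKM in the authors' deposited table (Cuffdiff p = 0.0174, q = 0.567). Slc10a6, a carrier of sulphated steroids, was at 93.8 and 167 FPKM in the authors' deposited table (Cuffdiff p = 0.0171, q = 0.566). It is the only one of the 7 above 100 FPKM on either side, and its 1.78-fold difference was the smallest among them. These 7 genes lie between 0.867 and 8.72 Mb from Hnrnpd, on both sides of it, and only Btc and Parm1 are neighbours among the members.

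**Figure D3:**
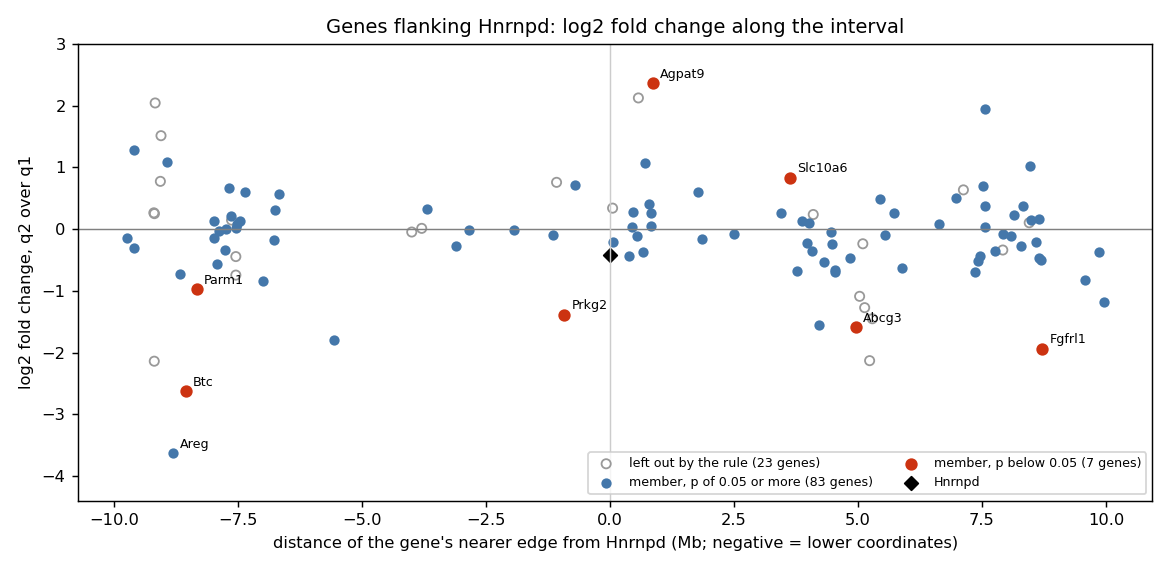
Log2 fold change of q2 over q1 (y axis) against the distance of each gene's nearer edge from Hnrnpd in Mb (x axis), for the members with a p of 0.05 or more (blue) and below 0.05 (red), the 23 genes left out by name (open circles) and Hnrnpd (diamond). The 7 red points are spread over both sides of Hnrnpd, and most blue points lie close to 0.

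Along the interval, in bins of 2 Mb by the distance between midpoints of the gene and of Hnrnpd, the medians of the log2 fold change were below 0 in 6 of 10 bins. The bin from 4 to 6 Mb above Hnrnpd stood lowest among the bins with more than 1 member, with 11 of 14 members below 0 and a median of -0.41. It holds the longest stretch of members in a row on 1 side of 0, 9 genes from Nudt9 to Abcg3. With the genes left out by name put back, Sparcl1 broke that stretch, and the longest was 13 genes below 0, from Dmp1 over Abcg3 to 5 Gbp genes. Of these, BC005561 and D930016D06Rik both lie within the RefSeq gene Thoc2l and may not be separate genes. Neighbouring members shared their sign in 53 of 89 pairs (59.6%), beside 52.5% of 14757 neighbouring pairs of tested genes on all chromosomes. With the genes put back it was 66 of 112 pairs (58.9%). At lower coordinates the median over 32 members was -0.02 and at higher coordinates, over 58, it was -0.10. The outermost members were Cox18, at 5.50 and 5.01 FPKM, and Gm15446, at 1.90 and 0.843 FPKM in the authors' deposited table. Just outside the interval, Adamts3 was at 0.674 and 0.802 FPKM and Zfp932 at 9.08 and 10.3 FPKM there.

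**Figure D4:**
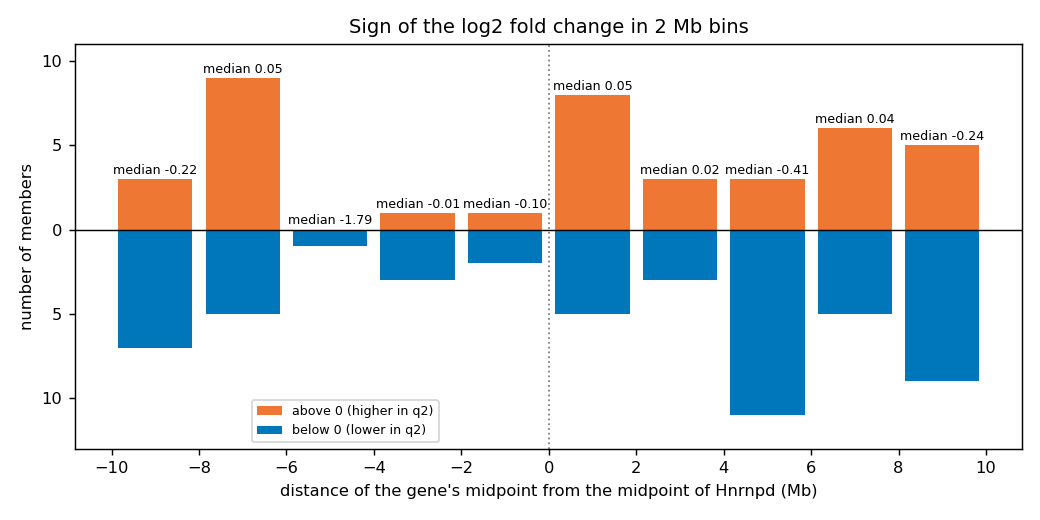
Number of members above 0 (orange, upward) and below 0 (blue, downward) in log2 fold change of q2 over q1, in 2 Mb bins of distance between the midpoints of each gene and Hnrnpd (x axis), with each bin's median. The bin from 4 to 6 Mb holds 3 members above and 11 below 0, and the bin from -6 to -4 Mb holds a single member.

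On the rest of chromosome 5, of 785 tested genes, 5.48% had an unadjusted Cuffdiff p below 0.05, and 3 were called in the authors' deposited table. In 6 stretches of the same length on this chromosome, with 54 to 215 tested genes each, none with genes left out, the share ranged from 1.85% to 9.09%. The 7.78% of the members lies within that range, and the 13.3% of the interval with the genes left out by name put back lies above it. The stretches with 29 and with 8 tested genes were left out of these ranges for their few genes. In both the share was 0%, and their median log2 fold changes were 0.02 and -0.23, with median sizes of 0.23 and 0.30. The median log2 fold changes of the 6 stretches ranged from -0.10 to 0.01. The median size of the log2 fold change was 0.23 to 0.32 in them, below the 0.36 of the members. The members also had a lower median level, 5.47 FPKM beside 7.70 FPKM over all tested genes, and low genes had larger differences in both sets. The level in the 6 stretches was not compared. Within classes of level, the median size was 0.73 in members and 0.81 in all tested genes under 1 FPKM. It was 0.43 and 0.36 from 1 to 10 FPKM, and 0.20 and 0.21 at 10 FPKM or more. The part of the level in the larger median size of the members was not tested.

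The genes left out by name held most of the low p-values of the interval. Of 23 such genes without Hnrnpd, 8 (34.8%) had an unadjusted Cuffdiff p below 0.05 in the authors' deposited table, 4 higher and 4 lower in q2, and none was called. They include Plac8, at 8.97 and 39.2 FPKM, and Ppbp, a chemokine of platelets, at 8.49 and 1.93 FPKM in the authors' deposited table. Since those names were set with results known, the lower share among the members is no independent result.

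Some members start back to back. In 3 pairs of members the RefSeq genes, predicted transcripts included, begin within 1000 bases of each other and run apart, and the signs of the log2 fold change were the same in 2, beside 51.7% of 540 such pairs of tested genes on all chromosomes. G3bp2, of stress granules, and Uso1, a tether of vesicles at the Golgi, with log2 fold changes of -0.03 and -0.34, had the same sign. Helq, a DNA helicase, and Mrps18c had the same sign too, with 0.41 and 0.05. Gak and Tmem175, with -0.20 and 0.17, had opposite signs. The stretch between G3bp2 and Uso1 is shown because it is the longest of the 3 and no exon of the RefSeq or GENCODE annotation used here covers it. The table places the start of G3bp2 at another, inner promoter, so this stretch need not be the one in use. It is printed on the plus strand from RefSeq (GRCm38.p6, chr5:92137726-92137908), with the CG dinucleotides in capitals.

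G3bp2 to Uso1: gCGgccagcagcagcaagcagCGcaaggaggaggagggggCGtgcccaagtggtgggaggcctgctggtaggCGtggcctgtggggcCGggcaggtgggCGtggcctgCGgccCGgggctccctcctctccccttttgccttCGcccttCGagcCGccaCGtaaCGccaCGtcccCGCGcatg

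These 183 bases are 73.2% G and C and hold 16 CG dinucleotides. Over the 250 bases before the start in 32851 RefSeq promoters the medians were 52.4% and 6. The letters TATAAA, searched on both strands, are not in this stretch and are in 12.4% of those promoters. The stretch is shorter than the 250 bases, and a CG count and a search for letters both depend on length.

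To describe the members by function, 68 of the 90 were placed on 12 lists of known roles, and a further list, the albumin genes, held none. The lists were drawn up with earlier results of these data known, so their counts and directions are no independent results. Over all tested genes with a value above 0 FPKM on both sides, 48.7% had a log2 fold change above 0 and 51.3% below. No list held a called gene, and 6 of the 12 list medians lay below 0. The growth factors of the EGF family, which activate the EGF receptor, form a cluster at the lower end of the interval. Areg was listed at 0.662 FPKM in q1 and 0.0535 FPKM in q2 in the authors' deposited table (Cuffdiff p = 0.255), and Btc at 0.846 and 0.137 FPKM (Cuffdiff p = 0.0125, q = 0.502). The 12.4-fold difference of Areg was the largest fold among the members and was 1.58-fold with 1 FPKM added. Areg and Btc are among the members that may have been tested only through their higher side. Ereg and Epgn, the other family members in this cluster, were not tested, at 0.0432 and 0.205 FPKM for Ereg and 0.221 and 0 FPKM for Epgn in the authors' deposited table. All 4 were thus below 1 FPKM on both sides. The albumin genes Alb, Afp and Afm, which belong to liver, were at or close to 0 in both conditions and not tested.

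The secreted phosphoproteins of mineralized tissue lie together 4 to 5 Mb above Hnrnpd. Spp1, osteopontin, was listed at 50.7 and 49.0 FPKM in the authors' deposited table, so that it was among the 10 highest members and nearly equal on both sides. Ibsp, bone sialoprotein, was at 3.80 and 2.63 FPKM in the authors' deposited table. Dmp1, of bone and dentin matrix, was at 1.04 and 0.354 FPKM in the authors' deposited table. Dspp and Mepe were listed at 0 in both conditions and not tested. All 3 tested genes of this list lay below 0, with a median log2 fold change of -0.53, and none had a p below 0.05.

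Matrix, adhesion and membrane genes lay below 0 in all 7 tested members, with a median log2 fold change of -0.83 (-0.32 with 1 FPKM added). Of these 7, Parm1 and Fgfrl1, described above, had a p below 0.05. The list does not take in every membrane protein: the carrier Slc10a6, on no list, was higher in q2. The common direction thus depends on which genes were listed. Crlf2, a subunit of the receptor for thymic stromal lymphopoietin, was listed at 2.67 and 1.5 FPKM in the authors' deposited table. Shroom3, which shapes epithelial cells, was at 0.832 and 0.463 FPKM in the authors' deposited table. Pkd2, a cation channel of primary cilia, was at 16.9 and 14.2 FPKM in the authors' deposited table. All 3 lay lower in q2, and none had a p below 0.05. Fgf5 was not tested, at 0.228 and 0.00672 FPKM in the authors' deposited table.

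Among 9 tested kinases, phosphatases and lipid signalling genes 4 lay above and 5 below 0, with a median log2 fold change of -0.01, and Prkg2 alone had a p below 0.05. Arhgap24, which inactivates Rac-type GTPases, was at 10.9 and 10.2 FPKM in the authors' deposited table. Cdc7, a kinase that starts DNA replication, was at 3.85 and 5.49 FPKM in the authors' deposited table. Dgkq, which phosphorylates diacylglycerol, was at 4.35 and 3.16 FPKM in the authors' deposited table. The list thus had no common direction.

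Genes listed for the secretory route and for the lysosome had opposite majorities, without any p below 0.05. Over all tested genes with a value above 0 FPKM on both sides, 48.7% had a log2 fold change above 0. With 6 tested genes on each list, a difference between the 2 lists was not tested. Of 6 tested traffic genes 5 lay below 0, with a median log2 fold change of -0.27. Uso1 was at 15.2 and 12.0 FPKM in the authors' deposited table. Gak, which uncoats clathrin vesicles, was at 21.8 and 19.0 FPKM in the authors' deposited table. Tmed5, a cargo receptor of early traffic, was the one above 0, at 49.7 and 58.0 FPKM in the authors' deposited table. Of 6 tested lysosomal and glycan-degrading genes 5 lay above 0, with a median of 0.39. Naaa, an amidase of lipid amides, was at 10.6 and 16.8 FPKM in the authors' deposited table. Scarb2, which carries an enzyme to lysosomes, was at 14.2 and 15.6 FPKM in the authors' deposited table. Tmem175, a potassium channel of lysosomes, was at 8.97 and 10.1 FPKM in the authors' deposited table. Idua, which degrades glycosaminoglycans, was the one below 0, at 9.71 and 6.90 FPKM in the authors' deposited table.

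The list of cyclins and cell division genes lay above 0 in 4 of 5 tested members, with a median log2 fold change of 0.32 and no p below 0.05. These values do not show whether cells divided more in either condition. Ccng2, an atypical cyclin, was listed at 10.3 and 15.4 FPKM in the authors' deposited table. Ccni, another such cyclin, was at 30.9 and 38.5 FPKM in the authors' deposited table. Both lay higher in q2, by 1.5-fold or less. The septin gene Sept11, whose name had been turned into a date in the table and was recovered from its position, was at 58.4 and 51.4 FPKM in the authors' deposited table.

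Transcription and chromatin genes were split, 4 above and 4 below 0, with a median log2 fold change of -0.01. Zfp326 was at 14.1 and 9.09 FPKM in the authors' deposited table. Aff1, of the super elongation complex family, was at 8.46 and 5.28 FPKM in the authors' deposited table. Dr1, a repressor of transcription initiation, was at 10.9 and 9.02 FPKM in the authors' deposited table. These 3 lay lower in q2. Mtf2, which brings Polycomb complexes to DNA, was at 10.0 and 9.33 FPKM in the authors' deposited table. Zfp644 was at 7.60 and 8.06 FPKM in the authors' deposited table. These last 2 were almost equal on both sides.

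Mitochondrial and metabolic genes, 11 tested, had a median log2 fold change of 0.05, and Agpat9 alone had a p below 0.05. Mrps18c, of the mitochondrial ribosome, was listed at 124 and 128 FPKM in the authors' deposited table. Nudt9, which cleaves ADP-ribose, was at 32.6 and 25.5 FPKM in the authors' deposited table. Hsd17b11, a lipid droplet enzyme, was at 11.2 and 12.0 FPKM in the authors' deposited table. The group was divided, with 6 members above and 5 below 0.

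The 5 tested RNA-binding, nuclear pore and complex assembly genes had a median log2 fold change of 0.04 and no p below 0.05. G3bp2 was at 46.3 and 45.4 FPKM in the authors' deposited table. Nup54, of the nuclear pore, was at 19.1 and 20.3 FPKM in the authors' deposited table. Ankrd17, an ankyrin repeat protein, was at 12.1 and 9.85 FPKM in the authors' deposited table. G3bp2 and Nup54 were thus close to equal. DNA repair, meiosis and ubiquitin genes, 5 tested, had a median of 0.13 and no p below 0.05. Rchy1, a ubiquitin ligase, was at 25.9 and 23.4 FPKM in the authors' deposited table. Fam175a, of a BRCA1 complex, was at 3.51 and 4.20 FPKM in the authors' deposited table.

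The 3 tested subunits of the LRRC8 volume-regulated anion channel lie side by side, 2 above and 1 below 0. Lrrc8b was at 0.588 and 0.823 FPKM in the authors' deposited table. Lrrc8c was at 27.3 and 25.7 FPKM in the authors' deposited table. Lrrc8d was at 5.15 and 6.20 FPKM in the authors' deposited table. On this length-scaled measure Lrrc8c was the highest of the 3 in both conditions.

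Among members outside these lists, the noncoding RNA Gm9958 was listed at 2.39 FPKM in q1 and 5.85 FPKM in q2 in the authors' deposited table (Cuffdiff p = 0.0836). Art3, of the ADP-ribosyltransferase family, was at 153 and 155 FPKM in the authors' deposited table, in a position that the table shares with Cxcl10 and Cxcl11. Mthfd2l, a mitochondrial folate enzyme from the metabolic list, was at 1.20 and 2.55 FPKM in the authors' deposited table (Cuffdiff p = 0.107). In all, 9 members had a position shared with another tested gene, among them Rchy1 and Art3, and fragments in such overlaps can be split between genes in ways that were not examined here.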

How the data were processed

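RNA sequencing of 6 samples gave 1 table with the column layout of Cuffdiff. TopHat2 2.0.9 and Cufflinks 2.2.1 are named in the submitters' processing notes; the annotation, strand setting and library normalization used were not stated. The authors deposited, by the headers, a value for every gene in each condition (on the FPKM scale if Cuffdiff wrote them, since no unit is named), the log2 fold change of q2 over q1, a test statistic or score, not used here, and a Cuffdiff p-value and q-value. Depth per sample is therefore unknown. Whether samples came from separate mice is not stated, so any spread behind the p-values may be technical.

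The notes name mm9, but 99.4% of 23001 genes matched by symbol or synonym to RefSeq overlapped their GRCm38 gene, so positions are in GRCm38, 1-based. Of the members, 89 of 90 matched.

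Counts, medians and folds were computed with Python 3.11.15, pandas 2.3.3 and scipy 1.17.1, and tested on simulated data. No test between samples, over members or over lists was run. Medians of log2 fold changes leave out genes with a side at 0; no member has one. The members and lists were chosen with earlier results of these data known. Named were the members with a p below 0.05, the 6 nearest on each side, the 10 highest, the 5 largest differences each way with 1 FPKM added, up to 4 per list and the outermost. Other genes named were chosen after their values were seen. The alternatives were the q and p thresholds, a minimum of 1 FPKM, pseudocounts of 0.1 and 1, centring, the flank length, the genes left out by name and, chosen after seeing the data, shared positions.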

Additional observations from a re-analysis of the deposited data

How the results depend on the processing

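No paired analysis was possible because the table holds 1 value per condition, pooled over replicates; for the same reason no replicate could be left out. Of 40 alternative values, 37 stayed close to the value reported: within 1.5 times for counts and shares of called or low-p genes, and within the 95% binomial interval for medians and shares above 0. That interval treats the members as independent, which neighbouring genes from the same libraries are not, so it is only a yardstick. Some of the 37 could not have moved, since a pseudocount cannot change a sign and no member has a side at 0. The tally is therefore no measure of how stable the results are. No member was called at a q below 0.01 or 0.1, with a minimum of 1 FPKM, with flanks of 5 or 2 Mb, with the genes left out by name put back, or without genes that share a position. Several of these outcomes were fixed in advance and are no further result. The smallest q of any tested gene was 0.0108 and the smallest of a member 0.303, so neither q threshold could add a call. The shorter flanks and the set without shared positions hold only members, none of which was called. The share of members at an unadjusted Cuffdiff p below 0.05, 7.78%, became 3.33% at a p below 0.01 (3 of 90, beside 2.16% of all tested genes), 11.8% within 2 Mb (2 of 17) and 13.3% with the genes left out by name put back (15 of 113). It was 11.1% within 5 Mb (4 of 36). Over all tested genes the share at a p below 0.05 was 5.99%. The median log2 fold change ranged from -0.10 to 0.03 and was above 0 only within 2 Mb, where 9 of 17 members lay above 0. Its median size ranged from 0.27 to 0.37. Centring on all tested genes moved 2 members to above 0. With so few genes in the shorter flanks, and no depth or replicate values, differences in these shares were not tested.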
